A study of Rattus norvegicus with 4 samples.

Results

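Vessels of wild-type (WT) male rats treated with angiotensin II (Ang II) were compared with vessels of WT male rats labelled as control, across genes. The comparison rests on 2 of the 4 arrays of the study, 1 for each condition, chosen by the genotype and treatment in the labels. It covers 9810 genes out of 16580 that could be named on the array, namely those whose probe read well above background on at least 1 of the 2 arrays. WT rats were Wistar rats, and the 2 remaining arrays hold vessels of transgenic rats with a PKCbeta deletion (KO), without and with Ang II. The series' design names 4 male rats of each genotype and 24 h of Ang II. The sources used here do not give how rats or vessels were combined into an array, which vessel was taken, the rats' age, the Ang II dose, or whether the animal or the isolated vessel was treated. With 1 array per group no test exists and no p-value is given. A difference is described by its size, and the treatment cannot be told apart from differences between animals or arrays.

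Ang II is the effector peptide of the renin-angiotensin system and a strong vasoconstrictor. Its main vascular receptor, the type 1 receptor, couples through G proteins to phospholipase C, calcium release and protein kinase C, and G-protein signalling is turned off by RGS proteins. Beyond contraction, the peptide is known in the vessel wall for activating NADPH oxidases and the transcription factor NF-kB, and for inducing endothelin, chemokines and interleukin-6.

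RNA was read on 1-colour arrays, where each spot's processed signal is a brightness after background subtraction. Levels are given as this signal, and a difference is the log2 signal on the WT Ang II array minus that on the WT control array, each scaled to its array's 75th percentile. That percentile was 58.7 on the WT control array and 62.4 on the WT Ang II array, so equal signals give a difference slightly below 0. Signals of different genes come from different probes and were not set against each other. Between 40.6% and 43.5% of probes were well above background on each of the 4 arrays, and no spot was saturated. All 4 arrays lay on 1 slide with 1 scan, both WT arrays before both KO arrays and control before Ang II within each, so slide position and group cannot be told apart. The label of a vessel was checked against markers. All 10 smooth muscle markers were well above background on both WT arrays, as were 13 of 16 blood endothelial markers with a probe. Of markers of other cells, 11 of 13 for T and NK cells, 8 of 9 for neutrophils, 8 of 12 for skeletal muscle and 6 of 8 for heart muscle were not well above background on either WT array, among them Cd3e, S100a8, S100a9, Myh4 and Myh6.

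Differences centred near 0, with a median of 0.04 over the 9119 genes measured on both arrays, and 5041 of them (55.3%) lay above 0. The middle 90% of genes lay between -0.49 and 0.66, with an SD of 0.36 and a range from -2.93 to 1.90. On both arrays 104 genes were at least 2-fold higher with Ang II (1.14% of those measured) and 46 were at least 2-fold lower (0.504%). A further 374 genes were well above background on the Ang II array only and 317 on the control array only. For these the difference is a bound, written as "at least": the dim array's value was raised, where lower, to that of its dimmest probe called well above background. Counting bounds, 140 genes were higher by 2-fold or more (1.43% of 9810) and 87 lower (0.887%), a split that became 29 and 8 when background was corrected by the normexp model in place of the scanner's own subtraction. At 1.5-fold, 614 genes were higher (6.73%) and 282 lower (3.09%). The scanner's own error of a difference had a median of 0.21, and each of the 104 higher genes differed by at least 3.01 times its own error. This error is technical and covers neither animals nor hybridisations. Spread was wider among dim genes. The SD of differences was 0.42 for genes whose brighter signal was under 50 and 0.26 for genes over 1000.

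**Figure D1:**
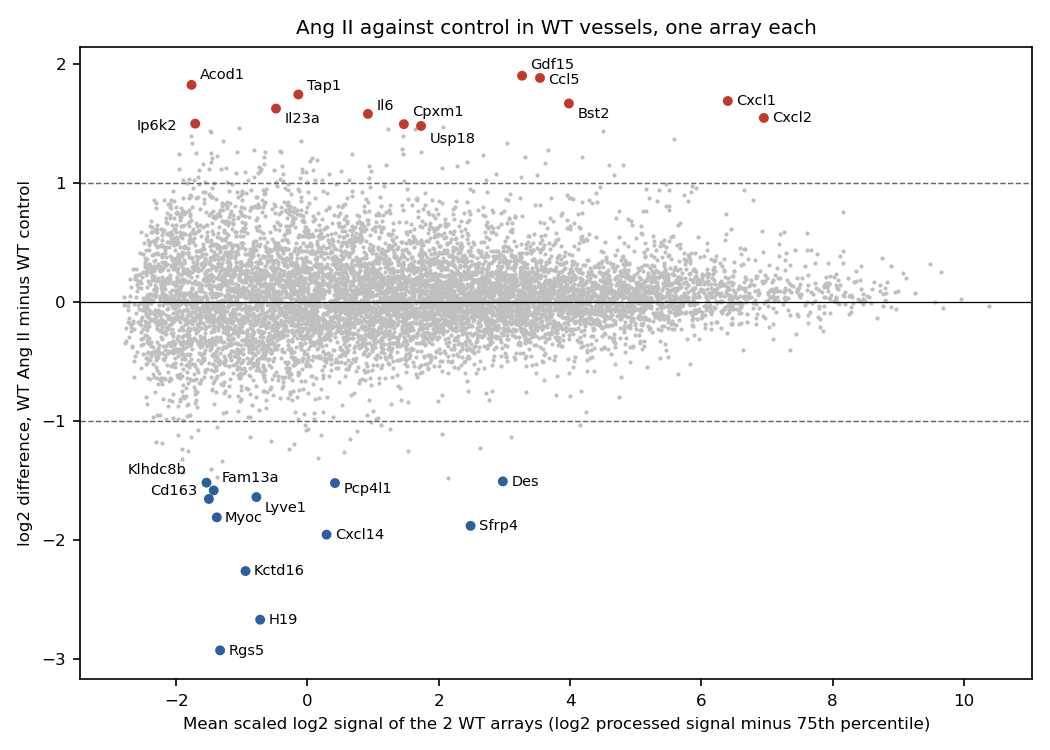
Difference between the WT Ang II and WT control arrays (vertical axis, log2) against the mean scaled log2 signal of both arrays (horizontal axis) for the 9119 genes measured on both; dashed lines mark 2-fold, and the 12 genes with the largest difference in each direction are coloured and named. The largest higher value is that of Gdf15 (1.90), and the largest lower values are those of Rgs5 (-2.93), H19 (-2.67) and Kctd16 (-2.26).

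Genes past 2-fold were chosen by the difference between both WT arrays, which favours an extreme value on one of them, so their order over the 4 arrays is given as a description only. Of the 46 lower genes, 43 read highest on the WT control array, and 22 read lowest on the WT Ang II array. Of the 104 higher genes, 100 read highest on the WT Ang II array, and 62 read lowest on the WT control array.

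Dim probes were common in both, with a brighter signal under 100 in 59 of the higher genes and in 28 of the lower genes.

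Chemokines are small secreted proteins that draw leukocytes to a tissue, and Ang II is known to induce several of them. Among CC chemokines, 10 of 11 measured members lay above 0, 4 were at least 2-fold higher and none was lower by that size on both arrays, with a median of 0.69. Of all genes measured on both arrays, 55.3% lay above 0 and 1.14% were at least 2-fold higher. As bounds, 2 further members were at least 2-fold lower, Ccl21 and Ccl24. Ccl5, a T cell attractant, had a signal of 357 on the WT control array and 1397 on the WT Ang II array, against 371 on the KO control and 297 on the KO Ang II array. The WT Ang II array thus stood alone above the other 3. Ccl19, which guides dendritic cells and naive T cells through the receptor Ccr7, read 1759.9 and 4822 in WT, a difference of 1.37, and 1471 and 1440.0 in KO. Ccl4, an attractant of monocytes and T cells, read 126 and 321 in WT (1.26) and 54.9 on each KO array. Ccl7 and Ccl12, monocyte attractants, differed by 1.06 and 0.75, and Ccl7 slipped just under 2-fold with quantile normalization. Ccl20, the ligand of Ccr6, stood at 0.69 on its brightest probe and 0.92 on the second. Ccl21, a chemokine of lymphatic endothelium, ran the other way. It read 49.1 on the WT control array, against 9.31 on the WT Ang II array, 1.91 and 1.88 in KO, none of these 3 well above background, which gave at least 5.61-fold lower, or -0.64 on the log2 scale with normexp, short of 2-fold. Ccl24, an eosinophil attractant named after its value was seen, read 17.4 and 9.10, at least 2.03-fold lower.

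Among CXC chemokines and fractalkine, 10 of 13 lay above 0, with 4 at least 2-fold higher, 1 lower and a median of 0.48. The list's value on second probes was -0.08, that of Cxcl12, which stood at 0.16 on its brightest probe. The shares of all measured genes were 55.3% above 0, and past 2-fold 1.14% higher and 0.504% lower. Cxcl1 and Cxcl2 attract neutrophils through Cxcr2. Cxcl1, averaged over 10 spots, read 2773 and 9493 in WT, a difference of 1.69 with a standard error over spots of 0.03. It read 2820.2 and 2947 in KO, so 3 arrays lay close together and the WT Ang II array lay above them. Cxcl2 read 4262 and 13219 in WT and 3939 and 5329 in KO, again with the WT Ang II array above the other 3. Cxcl11, an interferon-induced ligand of Cxcr3, read 192 and 449 in WT (1.14). Cxcl17 and Cxcl6 stood at 1.02 and 0.96 with signals of at most 26.9. Cxcl17 was 0.32 with normexp and also slipped under 2-fold when arrays were scaled to the median of detected probes. Cxcl14, a chemokine made constitutively by stromal cells, was the exception: it read 142 on the WT control array and 38.8 on the WT Ang II array over 9 spots (-1.96, standard error over spots 0.07), and 18.7 and 16.7 in KO, so the control array stood alone. The RNA came from whole vessels, so more cells of a type and more RNA per cell cannot be told apart for any gene. Beside the chemokines, summed signal of 20 macrophage markers was 5271 on the WT control array, 6111 on the WT Ang II array and 3465 and 4119 in KO, with 7 of 16 measured markers above 0 and a median of -0.08. Its part in these results was not tested.

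Cytokines followed. In the interleukin-6 family the median was 0.25. On second probes, which few members have, the list's value was -0.14, between those of Il6st (-0.10) and Socs3 (-0.17). Of 12 members 10 lay above 0 and 1 member was at least 2-fold higher, against 55.3% and 1.14% of all measured genes. That member was Il6, the acute-phase cytokine, with 64.4 and 204 in WT and 64.6 and 59.4 in KO, again 3 similar arrays and 1 high one. Il11, a cytokine of fibroblasts, stood at 0.59, Lif at 0.48 and the receptor Il11ra1 at 0.66. The signalling inhibitor Socs3 stood at 0.39 on its brightest probe and -0.17 on the second. None of these was past 2-fold. In the interleukin-1, tumour necrosis factor and interleukin-23 list 16 of 20 lay above 0, 4 were at least 2-fold higher and the median was 0.53, against 55.3%, 1.14% and 0.04 for all measured genes. Il23a, the specific subunit of interleukin-23, read 24.0 and 78.6 in WT and 20.5 and 34.6 in KO. Csf3, the granulocyte growth factor, read 389.8 and 857 in WT (1.05) and 380.0 and 286 in KO. Il33, an alarmin stored in the nucleus of stromal cells, differed by 1.04, and Tnf by 1.01 from 115 to 247. Both fell just under 2-fold when arrays were scaled to the median of detected probes, and with normexp they stood at 0.61 and 0.87. Il1a (0.70) and Il18bp, the decoy of interleukin-18 (0.71), did not reach 2-fold.

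NF-kB subunits and feedback genes had the highest median of the lists with at least 5 measured members, 0.81, with 13 of 14 above 0, 9 past 1.5-fold and 3 past 2-fold in that direction. Of all measured genes, 55.3%, 6.73% and 1.14% did so. NF-kB dimers are held in the cytoplasm by I-kappa-B proteins, whose genes NF-kB itself induces. Cd40, a receptor of the tumour necrosis factor family, read 40.1 and 96.8 in WT and 32.4 on each KO array. Traf1, an adaptor of such receptors, read 37.5 and 86.3, and Tnip1, an inhibitor of the pathway, 42.6 and 97.4. With normexp none of these 3 reached 2-fold, Cd40 standing at 0.50, Traf1 at 0.48 and Tnip1 at 0.67. Among the inhibitors, Nfkbia stood at 0.86 and Nfkbie at 0.95, and among the subunits Nfkb2 stood at 0.86, each short of 2-fold. The median was 0.48 with normexp. On second probes the list's value was 0.05, that of Nfkb1, which stood at 0.66 on its brightest probe. With normexp the interferon-stimulated, CC chemokine and IL-1, TNF and IL-23 lists had medians of 0.72, 0.60 and 0.18. Of adhesion molecules, which hold leukocytes to endothelium, none of 6 reached 1.5-fold. Icam1 stood at 0.55 and Vcam1, with signals of 13613 and 15788, at 0.13, while Sele and Selp were not well above background.

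Interferon-stimulated genes lay above 0 in 30 of 31 cases, with a median of 0.72. At least 1.5-fold higher were 17 and at least 2-fold higher 6, against the 6.73% and 1.14% of all measured genes. These genes encode antiviral and antigen-handling proteins and are switched on by type I or type II interferon. Bst2, a tether of budding virus, read 521 and 1759 in WT and 868 and 564 in KO, so the WT control array was the lowest and the WT Ang II array the highest. Usp18, which removes the ubiquitin-like protein Isg15, read 117 and 346 in WT and 122 and 120.5 in KO. Ifit3 read 111 and 323 in WT and 139 and 141 in KO. The guanylate-binding protein gene Gbp5 read 809 and 2332 in WT, and 399 and 328 in KO. For Usp18, Ifit3 and Gbp5 the WT Ang II array again lay above the other 3. Cmpk2, a mitochondrial nucleotide kinase, differed by 1.28. Oas1a, which senses double-stranded RNA, differed by 1.24 on its brightest probe and 1.22 on another.

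Genes for peptide loading of class I histocompatibility molecules lay above 0 in 13 of 15 cases, with a median of 0.34 and 3 at least 2-fold higher. Of all measured genes 55.3% lay above 0 and 1.14% were at least 2-fold higher. The peptide transporter is a dimer of Tap1 and Tap2. Tap1 read 29.2 and 104 in WT and 43.6 and 39.5 in KO. Tap2 read 271 and 588 in WT, a difference of 1.03 that was 0.97, short of 2-fold, on its second probe. Psmb8, an immunoproteasome subunit, read 75.6 and 177 in WT (1.14), and its partner Psmb9 stood at 0.66. Class I genes of the rat RT1 complex are near-identical copies, and their probes may share signal: RT1-S3 stood at 0.90 on its brightest probe and 0.43 on the second. Of 6 measured class II genes 4 lay above 0, none reached 1.5-fold, and the median was 0.14, with the invariant chain gene Cd74 at -0.48.

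Promoters of these genes are printed for the chemokine, cytokine, NF-kB and interferon lists so that the motif matches counted after them can be read in place. Each is the 250 bases before the RefSeq transcription start on GRCr8, 5′ to 3′ on the gene's strand, in lower case with motif matches in capitals. Shown are Cxcl1 (chr14:17479322-17479571, minus strand), Il6 (chr4:5894576-5894825, minus strand), Nfkbia (chr6:78597073-78597322, minus strand), Bst2 (chr16:18254968-18255217, minus strand), Ifit3 (chr1:241527076-241527325, plus strand) and Tap1 (chr20:4668544-4668793, minus strand).
Cxcl1: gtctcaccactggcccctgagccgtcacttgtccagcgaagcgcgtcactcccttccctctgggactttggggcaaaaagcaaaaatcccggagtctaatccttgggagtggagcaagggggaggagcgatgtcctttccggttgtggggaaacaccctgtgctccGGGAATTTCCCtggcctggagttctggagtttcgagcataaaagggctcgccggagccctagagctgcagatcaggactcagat
Il6: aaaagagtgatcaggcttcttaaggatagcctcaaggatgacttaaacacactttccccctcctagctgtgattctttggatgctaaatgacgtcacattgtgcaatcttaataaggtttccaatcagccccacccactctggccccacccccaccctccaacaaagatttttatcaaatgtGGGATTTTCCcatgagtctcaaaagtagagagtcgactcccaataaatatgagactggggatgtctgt
Nfkbia: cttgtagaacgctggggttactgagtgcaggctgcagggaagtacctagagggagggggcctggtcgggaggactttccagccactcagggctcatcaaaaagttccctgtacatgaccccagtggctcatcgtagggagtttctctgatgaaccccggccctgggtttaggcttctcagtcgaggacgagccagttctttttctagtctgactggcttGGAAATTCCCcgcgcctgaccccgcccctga
Bst2: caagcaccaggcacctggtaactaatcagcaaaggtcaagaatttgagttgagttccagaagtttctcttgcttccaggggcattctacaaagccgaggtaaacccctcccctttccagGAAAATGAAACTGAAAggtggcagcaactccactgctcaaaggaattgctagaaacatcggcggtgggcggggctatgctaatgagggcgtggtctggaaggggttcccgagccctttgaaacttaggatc
Ifit3: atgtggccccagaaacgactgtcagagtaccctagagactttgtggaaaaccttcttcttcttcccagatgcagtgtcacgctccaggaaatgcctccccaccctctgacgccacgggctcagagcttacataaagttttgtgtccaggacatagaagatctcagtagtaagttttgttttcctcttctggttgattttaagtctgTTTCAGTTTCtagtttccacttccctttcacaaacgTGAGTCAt
Tap1: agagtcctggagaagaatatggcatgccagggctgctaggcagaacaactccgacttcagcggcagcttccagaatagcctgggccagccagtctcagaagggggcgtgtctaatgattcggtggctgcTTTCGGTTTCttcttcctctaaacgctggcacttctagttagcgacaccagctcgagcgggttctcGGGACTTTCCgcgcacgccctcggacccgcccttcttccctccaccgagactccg

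The 4 motifs were searched on both strands from 250 bases before to 50 after the start: the interferon motif (GAAA, any 2 bases, GAAA), which is the core of the element bound by interferon regulatory factors, the kappaB site bound by NF-kB, TGANTCA, the site of AP-1, and the CArG box of serum response factor. Overlapping matches were each counted, and a match is a run of letters, not a shown binding site. The capitals in Cxcl1 are 2 overlapping kappaB matches starting 84 and 83 bases before the start, and Il6 and Nfkbia hold 1 each, starting 68 and 31 bases before it. Bst2 holds 2 overlapping interferon motif matches, 131 and 125 bases before the start. Ifit3 holds 1 on the other strand at 44 and a TGANTCA match at 8. Tap1 holds both kinds, the interferon motif at 121 and a kappaB match at 55 bases before the start. The interferon motif was found in 3.74% of all 24205 rat promoters, in 2.96% of the 7166 with a measured gene and in 12 of the 81 promoters found for the 104 higher genes (14.8%). In the interferon-stimulated list it was found in 19 of 28 promoters (67.9%), whether or not the gene was measured. The kappaB site was found in 4.09% of all promoters, 4.94% of those of measured genes and 15 of 81 of the higher genes (18.5%). It was found in 6 of 24 chemokine promoters (25%) and in 11 of 20 for the NF-kB and adhesion lists together (55.0%). TGANTCA was found in 9 of 81 promoters of higher genes (11.1%), against 7.33% of all and 5.02% of those of measured genes. The CArG box was found in 0 of 81, against 1.65% of all and 1.13% of those of measured genes. Of 29 promoters found for the 46 lower genes, 0 held the interferon motif, 3 held a kappaB site (10.3%), 1 held TGANTCA (3.45%) and 0 held a CArG box.

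Complement lay above 0 in 10 of 17 members, with a median of 0.10, against 55.3% and 0.04 for all measured genes. At least 2-fold higher was 1 member, the classical pathway protease C2 at 1.1, against 1.14% of all measured genes. The alternative pathway factor Cfb and the central component C3 stood at 0.59 and 0.56, while Cfd, made by adipocytes, stood at -0.54. Acute phase and innate secreted proteins lay above 0 in 10 of 11, with a median of 0.39, against the same 55.3% and 0.04 for all measured genes. Chi3l1, a chitinase-like glycoprotein of activated macrophages and smooth muscle, read 243 and 609 in WT (1.24) and 102 and 105 in KO. Lcn2, an iron-carrier-binding protein, stood at 0.83, Slpi at 0.78 and Ptx3 at 0.74.

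**Figure D2:**
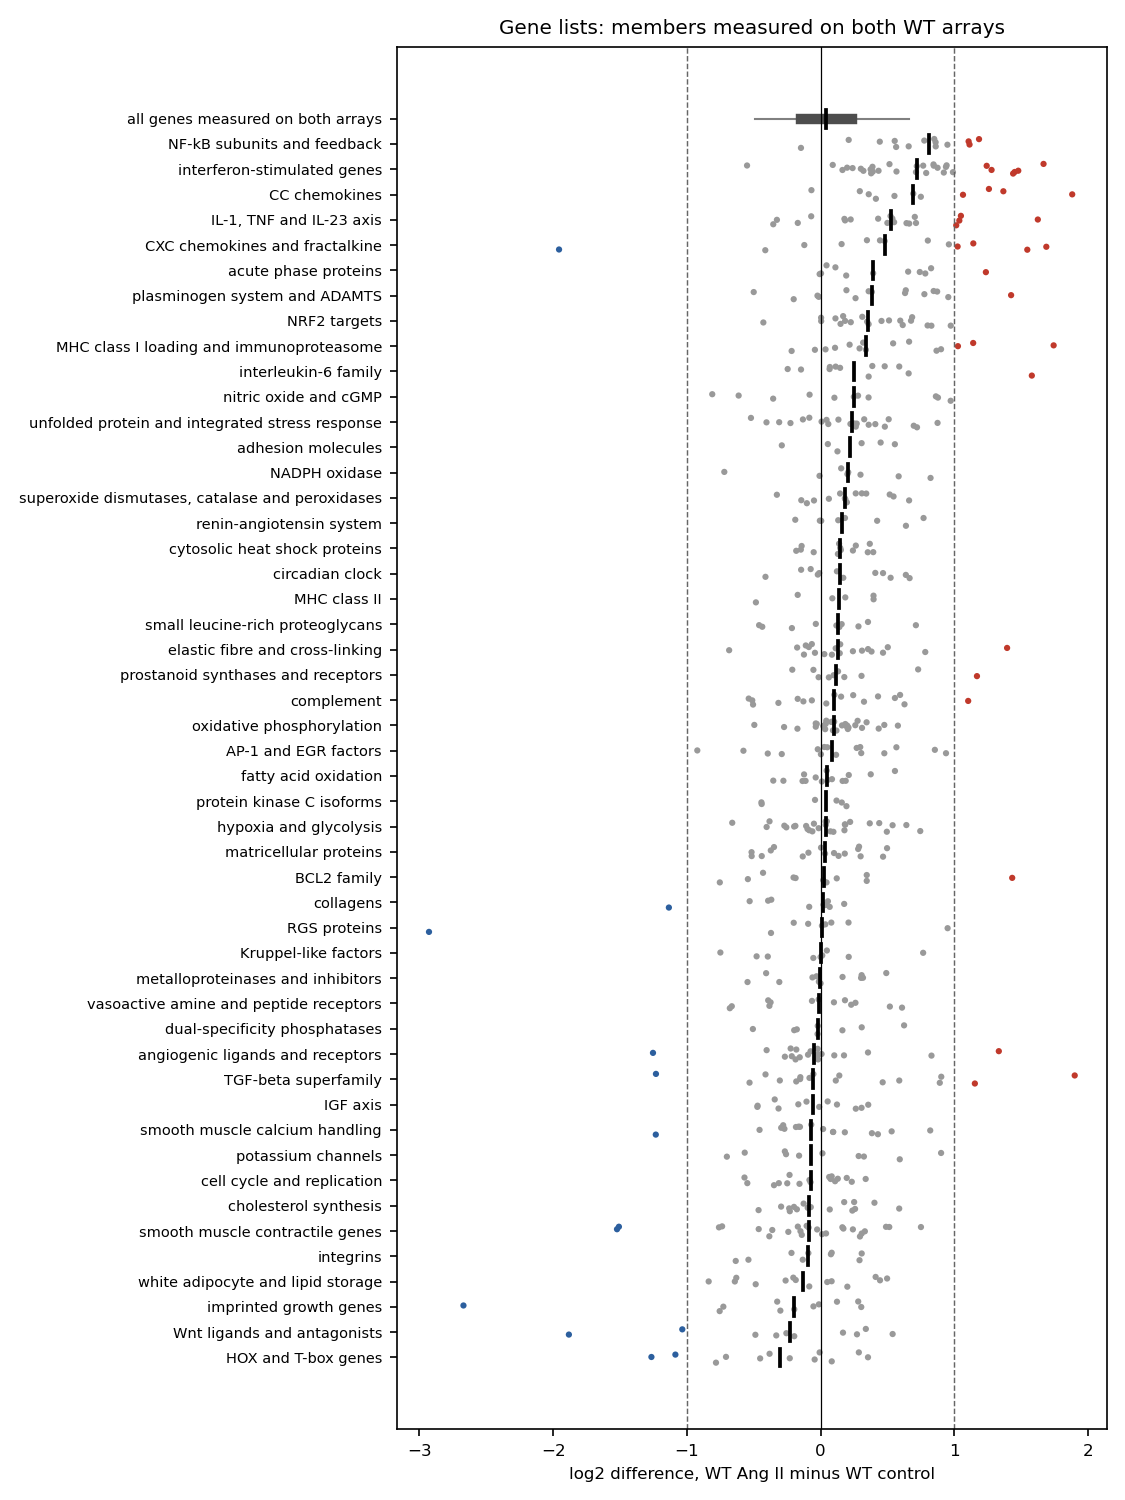
Log2 difference between the WT Ang II and WT control arrays for members of each gene list measured on both arrays (points; red at least 2-fold higher, blue at least 2-fold lower), with the list's median as a black bar; lists of cell type markers and 1 other list are left out and each shown list has at least 5 measured members. The top row gives all 9119 genes as median, quartiles (ends of the thick line) and 5th to 95th percentiles (thin line); NF-kB, interferon-stimulated and CC chemokine lists have medians of 0.81, 0.72 and 0.69 against 0.04 for all genes.

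Of the renin-angiotensin system itself, no member reached 2-fold. Atp6ap2, an accessory subunit of the vacuolar proton pump, stood at 0.77 on one probe and 0.59 on another. Ace, which makes Ang II, read 233 and 386 in WT and 249 and 250.2 in KO, a WT difference of 0.64 that was 0.67 on the second probe. Ace and Atp6ap2 were the 2 members at least 1.5-fold higher, of 8 measured, against 6.73% of all measured genes. The degrading peptidases stood at 0.42 (Mme), 0.13 (Enpep) and 0.18 (Lnpep), and Cma1, the mast cell chymase that also makes Ang II, was well above background only on the WT Ang II array (9.68), a bound of at least 1.14-fold. Agtr1a, the type 1 receptor, read 25.9 and 27.4, a difference of -0.01, and was not well above background in KO (6.33 and 6.25). Its binding protein Agtrap stood at -0.19. Agt, Agtr1b, Agtr2 and Mas1 were not well above background on either WT array.

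Protein kinase C isoforms, the kinases downstream of the type 1 receptor, did not reach 1.5-fold in any of 6 measured cases. Prkcb, the gene deleted in KO, read 14.8 and 18 over 9 spots in WT (0.19, standard error over spots 0.10), and was not well above background in KO (1.94 and 1.89), which is a check of the labels only if its probe lies in the deleted part. Among the other isoforms Prkcd stood at 0.16 on its brightest probe and -0.19 on the second, Prkci at 0.12, Prkch at -0.04 and Prkce at -0.44. Prkcq was a bound of at least 1.19-fold higher.

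In the endothelin system the value past 2-fold was a bound. Edn1, which encodes the constrictor peptide, read 48.2 on the WT Ang II array and was not well above background on the WT control (3.21), KO control (1.90) or KO Ang II array (3.72). The difference was at least 5.68-fold, or at least 8.55-fold when a probe needed at least 50% of its spots, not over 50%, well above background. With normexp the log2 difference was 0.48, short of 2-fold. The promoter of Edn1 held none of the 4 motifs in the window searched. The rest of the system pointed the other way or not at all: the converting enzyme Ece1 stood at -0.86, Ece2 at 0.15, the receptor Ednra at -0.45 and Ednrb at -0.17 on one probe and 0.17 on another.

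Among RGS proteins, which end signalling by G proteins of the type 1 receptor's kind, 2 members stood out in opposite directions. Rgs5, a marker of pericytes and arterial smooth muscle, read 64.4 on the WT control array and 9.0 on the WT Ang II array, the largest lower value of all genes measured on both (-2.93, scanner error 0.33). In KO it read 4.26, not well above background, and 9.80, so the WT control array alone was high. With normexp the difference was -0.998. Rgs2, which acts on Gq, read 1516 and 3112 in WT, just under 2-fold (0.95), and 2690.3 and 2596 in KO (-0.19). The other members were Rgs19 at 0.21, Rgs11 at 0.08, Rgs10 at 0.03, Rgs1 at 0.01, Rgs4 at -0.09, Rgs12 at -0.20 and Rgs3 at -0.37, while the second Rgs3 probe gave -0.96. Of 8 measured pericyte markers, with Rgs5 counted among them, 6 lay below 0 and the median was -0.19. Of all measured genes 55.3% lay above 0. Kcnj8, an ATP-sensitive potassium channel subunit of pericytes, however, read 2289.7 and 4543 (0.90). Summed signal of the pericyte list, not scaled between arrays, was 7654 and 9229 in WT. Kcnj8 alone rose by more than this sum did. The part of pericyte content in the Rgs5 value was not tested.

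**Figure D3:**
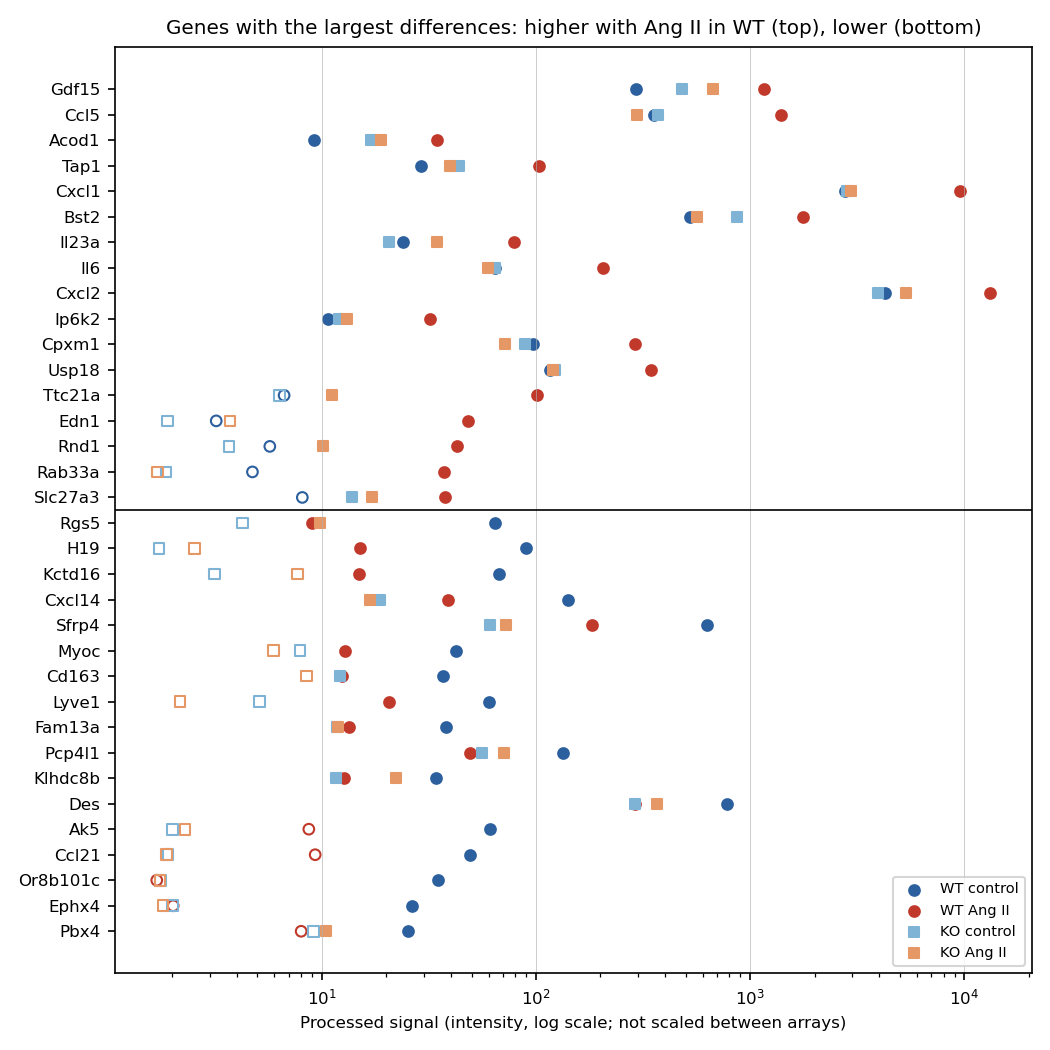
Processed signal (horizontal axis, log scale, intensity not scaled between arrays) of the genes with the largest differences on the 4 arrays: 12 measured and 5 bounds higher with Ang II in WT (above the line), 12 and 5 lower (below it); circles are WT, squares KO, and open symbols were not well above background. For the higher genes the red WT Ang II circle lies to the right of the other 3 symbols, and for the lower genes the dark blue WT control circle does.

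Prostanoid and nitric oxide genes held further higher values. Ptges, the inducible prostaglandin E synthase, read 479.5 and 1146 in WT and 465 and 291 in KO. It was the 1 of 10 measured prostanoid genes at least 2-fold higher (1.17), against 1.14% of all measured genes. Ptgs2, the inducible cyclooxygenase that feeds it, stood at 0.73, against 0.18 for the constitutive Ptgs1 and 0.13 for prostacyclin synthase Ptgis. In the nitric oxide list none of 11 reached 2-fold. The inducible synthase Nos2 read 30.5 and 63.6 in WT (0.97) but 71.4 and 31.4 in KO. Gch1, which makes the cofactor of nitric oxide synthase, stood at 0.86 and Arg1, which competes for arginine, at 0.88. On the receiving side, the guanylyl cyclase subunit Gucy1a1 stood at -0.81 and its partner Gucy1b1 at 0.36, and the phosphodiesterase Pde5a at -0.61 on one probe and -0.08 on another. Among receptors for amines and peptides 6 of 13 lay above 0, against 55.3% of all measured genes. Adra1b stood at -0.68, Htr2b at -0.66 and the inducible kinin receptor Bdkrb1 at 0.61. NADPH oxidase genes had a median of 0.20 over 8 members. On second probes the list's value was -0.38, that of Ncf1, which stood at -0.01 on its brightest probe. The subunits Noxa1 (0.82) and Ncf4 (0.58) and the catalytic Nox4 (-0.72, from 39.3 to 25.3) did not reach 2-fold.

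Early response factors split. All 3 NR4A nuclear receptors, immediate early genes of many stimuli, lay above 0 with a median of 0.92. For all measured genes these values were 55.3% and 0.04. Nr4a1 read 696 and 1721 over 9 spots in WT (1.22, standard error over spots 0.02) and 1311 and 979 in KO. Nr4a2 stood at 0.92 and Nr4a3 at 0.80. For each of the 3, both KO arrays lay above the WT control array. AP-1 and EGR factors held values of both signs, with Fos at 0.94 and Junb at 0.85 but Jun at -0.92 (-0.39 on its second probe) and Atf3 at -0.58. None of 16 reached 2-fold, and the list's median was 0.08. Kruppel-like factors split in the same way, Klf4 standing at 0.77 and Klf6 at -0.75 on one probe and -0.05 on another. Dual-specificity phosphatases, which switch off MAP kinases, had a median of -0.02, with Dusp1 at 0.62. In the circadian clock Nr1d1 stood at 0.66 and Bmal1, which it represses, at 0.64, and no member reached 2-fold.

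Contractile genes of smooth muscle were spread around 0, with 11 of 25 above it and a median of -0.09. All measured genes had 55.3% above 0 and a median of 0.04. At least 2-fold lower were 2, against 0.504% of all genes measured on both arrays. Des, the muscle intermediate filament protein, read 779.6 on the WT control array and 291 on the WT Ang II array (-1.51), and 291 and 366 in KO. Pcp4l1, related to the calmodulin-binding protein Pcp4, read 133 and 49.3 in WT (-1.52) and 56.0 and 70.5 in KO. In both genes the WT control array stood above the other 3. The regulatory light chain Myl9 stood at 0.75, the actin gene Acta2 at 0.29, the thin-filament protein Nexn at -0.76 and phospholamban, Pln, at -0.74 on one probe and 0.35 on another. Of calcium handling genes 1 of 17 was at least 2-fold lower, the T-type channel Cacna1h, with 73.7 and 33.4 in WT (-1.23) and 14.4 on the KO control array. The store-operated channel Orai1 stood at 0.82. Of potassium channels none of 10 reached 2-fold on both arrays, with the large-conductance channel Kcnma1 at -0.70 and Kcnk5 at 0.59. Rnd1, a small GTPase, was a bound: it read 42.8 on the WT Ang II array and 5.71 on the WT control array, at least 5.04-fold higher, or 0.63 on the log2 scale with normexp.

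Matrix genes held few values past 2-fold. Collagens had a median of 0.02, with Col1a2 at -0.09, and the 1 member past 2-fold was Col5a3 at -1.13, whose spots had a standard error of 0.31. Among elastic fibre genes Mfap4, a microfibril-associated glycoprotein, read 99.4 and 278 in WT (1.39) and 98.3 and 115 in KO. Fbln5 stood at 0.78 and the cross-linking enzyme Loxl2 at -0.68. Lum, a small leucine-rich proteoglycan, stood at 0.71 and the matricellular Postn at -0.52. None of 12 metalloproteinases and inhibitors reached 1.5-fold. In the plasminogen and ADAMTS list, 7 of 15 were at least 1.5-fold higher, against 6.73% of all measured genes, and the median was 0.38. Tfpi2, a serine protease inhibitor of the matrix, read 12.9 and 36.8 (1.42). The proteoglycan-cleaving Adamts1, over 10 spots, read 2564 and 5282 (0.95), and tissue plasminogen activator, Plat, 2447 and 4672 (0.84). Thbd, thrombomodulin, stood at 0.78 on its brightest probe and 1.54 on the second.

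Growth factor genes included the largest higher value measured on both arrays. Gdf15, a stress-induced cytokine of the TGF-beta superfamily, read 293 and 1163 in WT (1.90, scanner error 0.20) and 481 and 669.8 in KO. The WT control array was the lowest and the WT Ang II array the highest. Fst, the activin antagonist, read 954 and 2256 over 10 spots in WT (1.15), and 1.27 on its second probe. Tgfb3 (0.90), Bmp5 (0.89) and Tgfb1 (0.59) did not reach 2-fold, and the superfamily's median was -0.05. Hbegf, a ligand of the epidermal growth factor receptor, read 306 and 818 in WT (1.33) and 299.7 and 399 in KO, and a second such ligand, Ereg, stood at 0.83.

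Lists of patterning and imprinted genes had medians below 0 on their brightest probes. Wnt ligands and antagonists had a median of -0.23, and 2 of the 10 measured were at least 2-fold lower, against 0.504% of all measured genes. Both were secreted frizzled-related proteins, which bind Wnt ligands. Sfrp4 read 632 and 182 in WT (-1.88) and 61.3 and 72.4 in KO, where both arrays lay below the WT ones. Sfrp1 read 182 and 94.6 in WT, -1.03 on its brightest probe and -1.57 on the second, and -0.67 with normexp. HOX and T-box genes, which keep a cell's position along the body, had a median of -0.31, with 9 of 12 below 0. Of all measured genes 55.3% lay above 0. At least 2-fold lower were 2 of the 12, against 0.504% of all measured genes. On second probes the list's value was 0.21, that of Hoxa2, which stood at 0.29 on its brightest probe. Hoxc9 read 134 and 59.4 in WT (-1.27) and 32.5 and 23.1 in KO, Hoxc4 stood at -1.09, and Tbx1 and Hoxd9 at -0.78 and -0.71. With normexp Hoxc9 and Hoxc4 were short of 2-fold, at -0.87 and -0.70. Imprinted growth genes had a median of -0.20. H19, a noncoding RNA of growing tissue, read 90.0 on the WT control array and 15 on the WT Ang II array (-2.67) and was not well above background in KO (1.74 and 2.55). Dlk1 and Plagl1 stood at -0.76 and -0.73.

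Stress and metabolic lists held no gene past 2-fold on both arrays except Bid. Targets of NRF2, the antioxidant regulator, lay above 0 in 19 of 20 members, 7 of them at least 1.5-fold, with a median of 0.35, against 55.3%, 6.73% and 0.04 for all measured genes. That median came to 0 on second probes. Gstm1, a glutathione transferase, read 94.1 and 196 (0.97, second probe 0.70). Slc7a11, the cystine importer, stood at 0.83 but -0.29 on its second probe. Peroxidases and dismutases had a median of 0.18, with Cat at 0.66 and Prdx1 at 0.54. The unfolded protein and integrated stress response had a median of 0.24, with 16 of 22 above 0. Creld2, a chaperone of the endoplasmic reticulum, read 686 and 1336 in WT (0.87) and 199 and 404 in KO (0.88), so its difference had nearly the same size in both genotypes. Hypoxia and glycolysis genes had a median of 0.04 over 28 members, oxidative phosphorylation genes 0.10 over 29, and cell cycle genes -0.08 over 17, against 0.04 for all genes. Bid, which links death receptors to mitochondria, read 12.8 and 36.8 in WT (1.43) and 19 and 13.3 in KO. With normexp its difference was 0.34.

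Some markers of rarer vessel cells were among the lower genes. Of lymphatic endothelial markers, Lyve1 read 60.5 and 20.6 in WT (-1.64) and Reln, over 10 spots, 103 and 44.1 (-1.32, standard error over spots 0.07, second probe -0.83). Neither was well above background in KO. The defining lymphatic factor Prox1, however, stood at 0.43 with signals of 10335 and 14848, and Pdpn at 0.22 on its brightest probe and -0.55 on the second. Summed signal of the 7 lymphatic markers with a probe, not scaled between arrays, was 11988 and 16704 in WT, most of it from Prox1. The sum was 7557 and 7499 in KO, where 2 of the 7 markers were well above background on each array. Bounds included, 4 of 6 lymphatic markers lay lower, with a median of -0.88. Of all genes measured on both arrays, bounds left out, 55.3% lay above 0. One of the bounds is that of Ccl21. Of blood endothelial markers Kdr, the receptor of vascular endothelial growth factor, read 263 and 117 (-1.25) and the fenestral protein gene Plvap 138 and 65.9 (-1.15), while Eng stood at 0.57 and Pecam1 at -0.29. The list's median over 13 genes was -0.08. Of macrophage markers Cd163, a scavenger receptor of resident cells, read 36.8 and 12.4 (-1.66), but Adgre1 stood at 0.73 and Cd14 at 0.58. Of mast cell markers Hdc, the histamine-forming enzyme, read 25.9 and 10.2 (-1.43, and -0.85 as a bound on its second probe). The growth factor receptor Kit stood at -0.84. The chymase Cma1 went the other way, from 4.83, not well above background, to 9.68, a bound of at least 1.14-fold higher. Cpa3, Tpsab1 and Fcer1a were not well above background. Haemoglobin signal was higher on the WT Ang II array, with Hba-a2 at 1.18 and Hba-a1 at 0.84, and the 8 erythroid genes with a probe summed to 1153 and 2158 in WT and 980.5 and 1530.2 in KO. Fcgr3a, listed as a neutrophil marker, read 28.4 and 72.4 (1.26), whereas the 8 other neutrophil markers with a probe were not well above background. The part of cell composition in any of these values was not tested.

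Further genes past the rule belonged to no list. Acod1, the itaconate-forming enzyme of activated macrophages, read 9.18 and 34.5 in WT and 16.9 and 18.9 in KO, a difference of 1.82 that was 0.36 with normexp. Ip6k2, an inositol phosphate kinase, read 10.69 and 32.1 (1.5; 0.28 with normexp), and Cpxm1, a carboxypeptidase-like secreted protein, 96.9 and 289.9 (1.49; 1.09). As bounds, Ttc21a, an intraflagellar transport homologue, read 101 against 6.66, at least 11.9-fold higher (1.21 on the log2 scale with normexp). Rab33a, a small GTPase, read 37.1 against 4.74, at least 4.37-fold, or at least 6.58-fold under the looser spot rule. Slc27a3, an acyl-CoA synthetase, was at least 4.35-fold higher. With normexp Rab33a and Slc27a3 stood at 0.56 and 0.37, both under 1.5-fold. In the lower direction Kctd16, an auxiliary subunit of GABA-B receptors, read 66.9 and 14.8 in WT and was not well above background in KO. Its brightest probe differed by -2.26 and its second by -2.01, and with normexp it stood at -0.81, short of 2-fold. Myoc, the secreted protein myocilin, read 42.2 and 12.8 (-1.81), Fam13a 37.8 and 13.4 (-1.58) and Klhdc8b 34.2 and 12.7 (-1.52). With normexp the 3 stood at -0.61, -0.50 and -0.39. Ak5, an adenylate kinase, read 61.2 on the WT control array and 8.69 on the WT Ang II array over 2 spots, at least 7.49-fold lower. Or8b101c, Ephx4 and Pbx4 were at least 4.68-fold, 3.52-fold and 3.34-fold lower. With normexp Ak5, Or8b101c, Ephx4 and Pbx4 stood at -0.92, -0.52, -0.52 and -0.37, all short of 2-fold. For Ak5, Or8b101c and Ephx4, as for H19 and Kctd16, the WT control array was high alone, and neither KO array was well above background. Rn18s, a ribosomal RNA probe named after its value was seen, stood at -1.48. Integrity was assessed per the labels, whose scores were not used here, and the part of RNA quality in the results was not tested.

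The 72 genes past 2-fold that the rule for named genes chose were read again under the alternatives that gave them a value, and none changed sign there. The second brightest probe gave a value for 7 of them and the filter on both arrays for 62. With normexp, which compresses dim signals, 20 of 45 higher and 6 of 27 lower genes of these remained past 2-fold. The 20 higher ones were Gdf15 (1.76), Ccl5 (1.71), Bst2 (1.70), Cxcl1 (1.68), Cxcl2 (1.60), Hbegf (1.32), Usp18 (1.31), Gbp5 (1.31), Cmpk2 (1.30), Il6 (1.26), Ttc21a (1.21), Nr4a1 (1.18), Fst (1.17), Ccl19 (1.16), Mfap4 (1.15), Ifit3 (1.13), Ccl7 (1.11), Cpxm1 (1.09), Csf3 (1.07) and Chi3l1 (1.07). The lower ones included Sfrp4 (-1.62), Des (-1.13), Cxcl14 (-1.09), Kdr (-1.06) and H19 (-1.04). Among genes that fell short of 2-fold were Tap1 at 0.72, Il23a at 0.63, Lyve1 at -0.66 and Cd163 at -0.42.

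A second probe of the same gene gives a technical check on the same 2 arrays. Of 6 genes at least 2-fold higher with a second probe measured on both arrays, 5 had the same sign there and 3 were past 2-fold; the exception was Naa12, named after its values were seen. Of 5 genes at least 2-fold lower, namely Kctd16, Reln, Ntrk3, Cd248 and Sfrp1, all 5 had the same sign and 3 were past 2-fold. Between 1.5-fold and 2-fold the agreement of probes was looser. Signs matched between probes in 43 of 55 higher genes, with a median of 0.34 on the second against 0.76 on the brightest, and in 17 of 31 lower genes, with a median of -0.08 against -0.67. Under 1.5-fold it was 938 of 1643. Values under 2-fold given above for single genes rest on 1 probe, the brightest, unless a second is stated. Some of these genes have a second probe whose value is not given. List medians near 0 had no fixed sign: those of collagens, dual-specificity phosphatases, hypoxia and glycolysis, oxidative phosphorylation and the TGF-beta superfamily turned under at least 1 other background correction, scaling or probe choice, and those of cell cycle genes and of blood endothelial markers turned on second probes. For macrophage markers the second-probe value was that of Aif1 (0.40), which stood at 0.37 on its brightest probe. Second-probe values of lists rest on the fewer members that have such a probe.

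**Figure D4:**
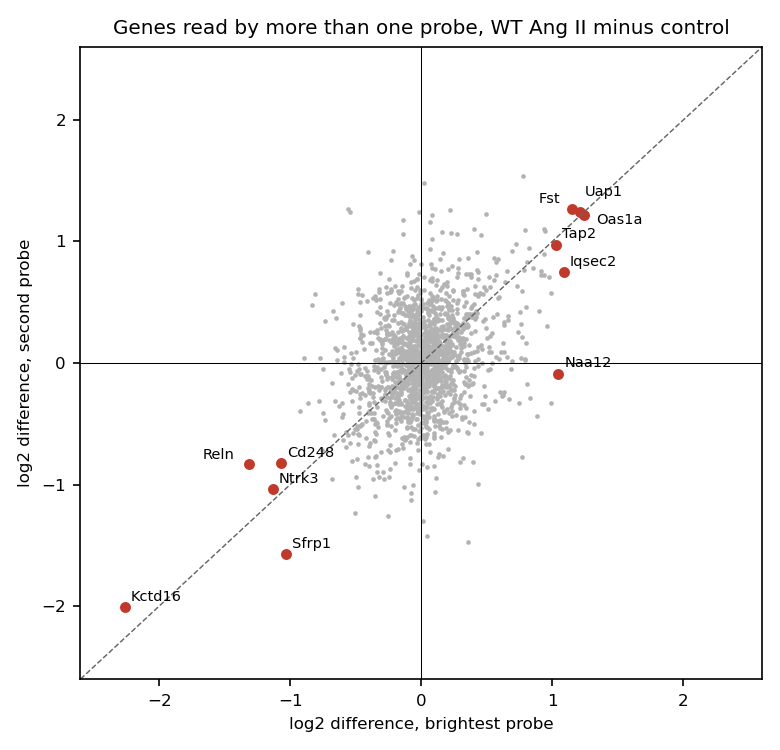
Log2 difference between the WT Ang II and WT control arrays on the second brightest probe (vertical axis) against that on the brightest probe (horizontal axis), 1 point per gene with both probes measured on both arrays; the 11 genes past 2-fold on the brightest probe are coloured and named and the dashed line marks equal values. Kctd16, Oas1a, Fst and Uap1 lie close to the dashed line, and Naa12 lies near 0 on its second probe.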

How the data were processed

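Per the labels' protocols, 100 ng of total RNA was labelled with Cy3 and hybridised to 1-colour arrays. Images were read with Agilent's Feature Extraction, version 10.7.1.1 per the file headers but 12.1.1.1 per the submitters' processing notes. The deposited intensity values are processed signals after background subtraction and spatial detrending within each array, with their errors, per the file headers; they are not normalized between arrays. Signal flags are 0 or 1. The authors' deposited table of log2 values, an alternative source, differed from log2 processed signals by 1 constant per array, within 0.01, for 98.3% to 98.4% of probes; its centring is not stated.

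Outlier spots (301 to 372 of 58717 per array) were dropped, spots of a probe averaged, and log2 signals scaled to the array's 75th percentile over 45594 probes. A probe counted as well above background where more than 50% of its spots were flagged so. Accessions without versions matched GRCr8 RefSeq genes for 21107 probes (16580 genes) and none for 24487. A gene took its brightest probe, and promoters came from RefSeq on GRCr8. Steps used Python 3.11.15, numpy 2.4.6, pandas 2.3.3, R 4.3.3 and limma 3.58.1 (normexp, offset 50) and were tested on simulated data. Named genes were the 12 largest differences per direction among genes measured on both arrays, the 5 largest bounds, all renin-angiotensin, kinase C, endothelin and RGS members, and up to 6 largest of each other list described. Some of these genes and 1 list are not reported here. The comparison, its members and the 68 gene lists were chosen with earlier results of these data known, so the lists are descriptions and not independent evidence. With 1 array per group, no replicate spread exists, and the number of arrays limits every value. Alternatives changed the background correction, scaling, filter, bound, probe and spot summary, outlier flags and value source.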

Additional observations from a re-analysis of the deposited data

Results flagged for a closer look

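Of 335 named genes measured on all 4 arrays, 10 pointed in opposite directions in WT and KO with at least 1.5-fold on each side. Each array is 1 sample, so the difference was not tested. Named genes were mostly chosen for the size of their WT difference, which favours 1.5-fold on that side. The share over all genes was not computed, so whether 10 is more than among other genes is not known. Higher in WT and lower in KO were Bst2 (1.67 and -0.76), the apoptosis gene Bid (1.43 and -0.65), prostaglandin E synthase Ptges (1.17 and -0.82), the nitric oxide synthase Nos2 (0.97 and -1.32), the chemokine Ccl20 (0.69 and -0.81) and the protease Adamts9 (0.64 and -0.80). Lower in WT and higher in KO were Klhdc8b (-1.52 and 0.80), the Wnt antagonist Sfrp1 (-1.03 and 0.69), the T-box factor Tbx1 (-0.78 and 1.11) and Ankrd37 (-0.66 and 0.97), a target of hypoxia-inducible factor.

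Probes without a gene name were used in no comparison. Of 7537 of them measured on both WT arrays, 44 were higher with Ang II by 2-fold or more (0.584%) and 53 lower by as much (0.703%), with differences from -3.65 to 1.73. What they read was not analysed here.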

How the results depend on the processing

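The counts of 140 higher and 87 lower genes stayed within 1.5 times under scaling to detected probes or their median, quantile normalization, the mean of a gene's probes, the median of spots, outlier spots kept and the authors' deposited values, where they ran from 120 to 147 and from 84 to 105. They moved to 29 and 8 with normexp, of which 26 and 8 were among the original genes, to 29 and 21 when each gene was read by its second brightest probe, which fewer genes have, to 244 and 180 with dim values as read, and to 722 and 807 with no filter and signals floored at 1. Restricting to genes well above background on both arrays left 104 higher, within 1.5 times, and 46 lower. Counting a probe as above background with at least 50% of its spots, an alternative chosen after seeing the data, gave 198 and 98. None of the 72 genes past 2-fold that the rule for named genes chose changed sign where an alternative gave a value. Of 72, normexp left 26 past 2-fold, scaling to detected probes or quantile normalization 69 each, scaling to their median 68, and the second probe 4 of 7. No paired analysis was possible because each group holds 1 array and the groups share 1 replicate number, and for the same reason no array could be left out. Naming genes by accession alone is how names were made throughout, so that alternative gave no other value. Signal limits the dim genes, since 59 of 104 higher and 28 of 46 lower genes had a brighter signal under 100.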
